A study of Mus musculus with 25 samples.

Results

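The genes described here are 10 genes of adipocytes, the fat-storing cells that lie in the epineurium and in the fat around a nerve. They are Pparg, Plin1, Plin4, Cidec, Fabp4, Adipoq, Lep, Retn, Cfd and Ucp1. They were taken as a fixed list of symbols, matched to the Ensembl identifiers of the count table, out of 56956 genes in all. All 10 passed the filter on low counts, a log2 CPM (counts scaled to a common library total, TMM) above 1 in at least 7 of 25 libraries, which 13993 genes passed. The question was whether the amount of fat RNA differed between libraries, since lipid genes of the nerve are read from the same RNA.

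RNA from whole sciatic nerve gave 25 libraries in 5 groups. Each group had 1 library at every age, which was 3, 5, 7, 9 or 12 weeks, made from 1 pool of animals of both sexes. C3 mice carry a human PMP22 transgene (B6.Cg-Tg(PMP22)C3Fbas/J) on the C57BL/6J background and WT-C3 are C57BL/6J mice without it. C22 mice (Tg(PMP22)C22Clh) carry more copies of human PMP22, on FVB/NRJ, and C3 is a partial revertant of that line, while WT-C22 are FVB/NRJ mice. C3 c-JunP0Cre mice carry the C3 transgene and in addition lack c-Jun in the cells in which the P0 promoter drives Cre, the Schwann cells. No group carries the Cre or the floxed allele alone, and strain, line and copy number change together between C3 and C22. Since no age had another pool of the same group, the ages were used as the replicates (n = 5). The SDs, and SE and p in fits without an age term, cover age as well as pools. Fits with age as a block, a spline or a slope take a course of age out of that spread.

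White adipocytes keep triglyceride in 1 large droplet coated by perilipins and release fatty acids and hormones. Pparg is the nuclear receptor that drives the adipocyte programme, and its targets include the droplet proteins, the fatty acid carrier Fabp4 and the hormone adiponectin. Adipocytes also make triglyceride and fatty acids themselves, with enzymes that myelinating Schwann cells use too, whereas the cholesterol of myelin is made largely by the Schwann cell.

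The start sites of 3 of the hormone genes are shown, since Lep and Retn are set beside Adipoq when the strains are compared. Each run is 300 bases in the direction of the gene, from 250 bases before to 50 bases after the start, from RefSeq (GRCm38.p6). The reference is the C57BL/6J genome, so no base of the FVB/NRJ allele is shown. Capitals mark matches to TTGCGCAA (the C/EBP palindrome), AGGTCA (the nuclear receptor half-site), TTGCNNNAA, TATAAA or CCAAT on either strand.
Adipoq, chr16:23146286-23146585, plus strand: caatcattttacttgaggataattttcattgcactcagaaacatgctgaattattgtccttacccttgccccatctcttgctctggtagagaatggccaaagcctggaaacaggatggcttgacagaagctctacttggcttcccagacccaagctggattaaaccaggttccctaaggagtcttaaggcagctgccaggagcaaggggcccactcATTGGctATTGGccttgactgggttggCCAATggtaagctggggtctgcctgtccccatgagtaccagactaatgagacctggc
Lep, chr6:29059971-29060270, plus strand: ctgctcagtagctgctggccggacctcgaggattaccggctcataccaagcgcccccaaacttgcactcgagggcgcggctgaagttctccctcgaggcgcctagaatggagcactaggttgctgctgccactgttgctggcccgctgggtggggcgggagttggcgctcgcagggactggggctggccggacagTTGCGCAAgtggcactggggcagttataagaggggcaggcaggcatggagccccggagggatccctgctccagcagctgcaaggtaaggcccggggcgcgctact
Retn, chr8:3655520-3655819, plus strand: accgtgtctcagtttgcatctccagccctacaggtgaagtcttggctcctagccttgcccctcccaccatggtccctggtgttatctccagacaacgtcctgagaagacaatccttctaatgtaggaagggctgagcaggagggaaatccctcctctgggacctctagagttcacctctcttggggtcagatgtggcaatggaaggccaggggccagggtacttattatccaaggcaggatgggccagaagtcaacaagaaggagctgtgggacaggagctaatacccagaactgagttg
The Lep window held the C/EBP palindrome from base -55, a match found in 0.183% of 32851 promoters of the same length. The Adipoq window held 3 CCAAT boxes, a word present in 37.4% of promoters, and the Retn window held none of these words. Promoters were matched for 9 of the 10 genes. The half-site AGGTCA was in 2 of those 9, Pparg and Ucp1, against 16.3% of all promoters. A match or its absence says nothing on binding.

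Human PMP22, the transgene, was at 10077 to 14131 CPM in C3, 7874 to 16297 CPM in C3 c-JunP0Cre and 9913 to 14104 CPM in C22. The range of C22 was thus not above that of C3. In the controls it was at 0.0395 to 6.30 CPM. Jun was at 26.4 to 31.7 CPM in C3 c-JunP0Cre and at 95.1 to 118 CPM in C3. Counts on genes per library ran from 2140142, in C3 at 9 weeks, to 49072746, with a median of 24663235. The 8 markers of myelinating Schwann cells made up 2.69% to 8.92% of counts. The 8 markers of skeletal muscle, a tissue that borders the nerve, summed to between 6.17 and 8152 CPM, with high and low libraries in each group. Xist, the transcript of the inactive X chromosome, ran from 5.08 to 8.57 log2 CPM, a gene chosen after its values were seen, and its part in the adipocyte genes was not tested.

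Adipocyte RNA was present in every library. The 9 genes other than Ucp1 together with 20 further white adipocyte genes made up 0.166% to 1.86% of counts, a range that spans the groups and ages. The group medians were 0.523% in WT-C3, 0.421% in C3, 0.629% in C3 c-JunP0Cre, 1.27% in WT-C22 and 0.960% in C22. In whole nerve, fewer adipocytes and less RNA of these genes per adipocyte cannot be told apart, nor can epineurial fat and fat left on the nerve at dissection.

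Levels of different genes were compared per kilobase of the canonical transcript. In WT-C3 the mean level per kilobase was 1099 CPM for Cfd (adipsin, a complement protease that fat secretes) and 377 CPM for Fabp4. Adipoq, Plin1, Retn and Cidec followed at 137, 64.3, 60.4 and 49.9 CPM per kilobase. Plin4 lay at 26.4, Pparg at 9.37, Lep at 8.39 and Ucp1 at 0.0968 CPM per kilobase. Cfd was first and Fabp4 the next in the means of all 5 groups.

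**Figure D1:**
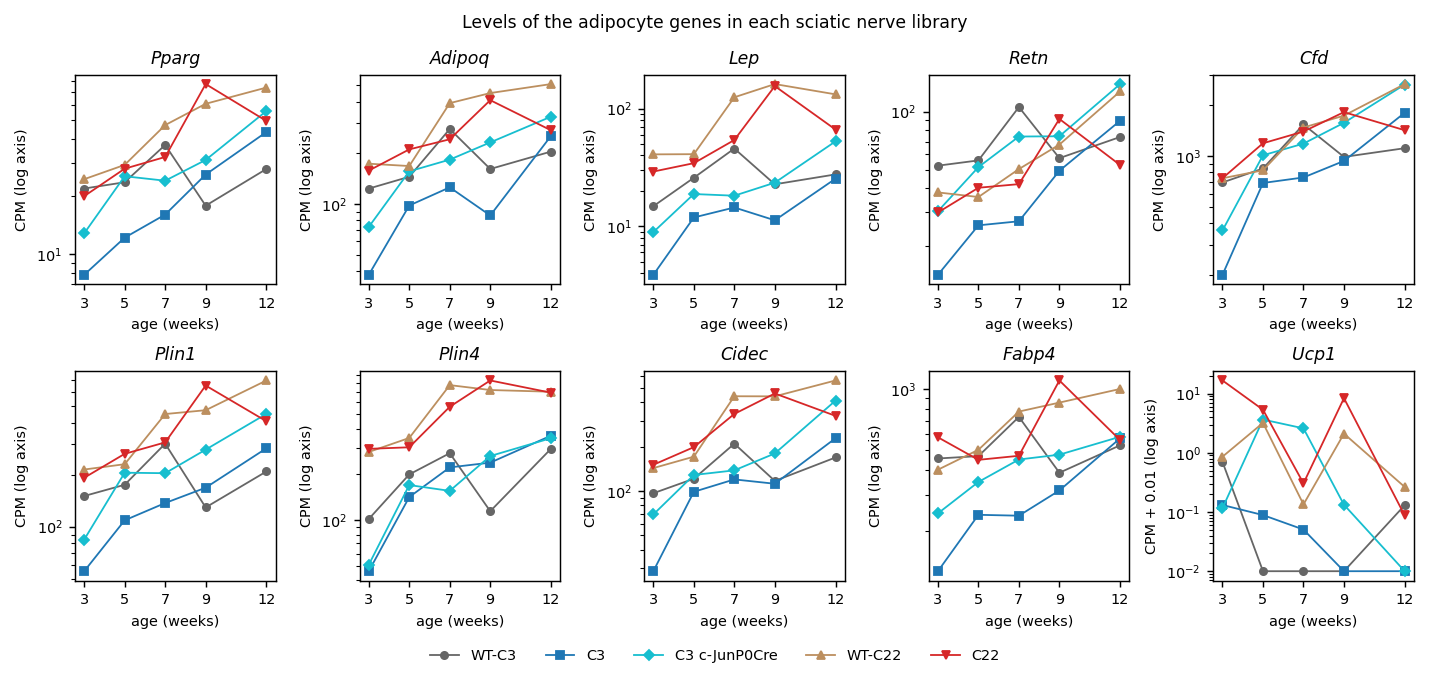
Level of each adipocyte gene (CPM after TMM scaling, log axis; 0.01 added for Ucp1) against age in weeks, with 1 point per library and a line per group. The C3 library of 3 weeks holds the lowest value of 9 genes, with Adipoq at 38.1 CPM, and Ucp1 follows no course with age.

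Adipoq (ENSMUSG00000022878, chr16:22964106-22976810 in GRCm39, plus strand) encodes adiponectin, a hormone made by adipocytes only, and served as the reference for the other genes. From 3 to 12 weeks it was at 123, 144, 276, 161 and 203 CPM in WT-C3. In C3 it was at 38.1, 97.7, 125, 85.3 and 252 CPM, below WT-C3 at the first 4 ages and above it at 12 weeks. The ranges of both groups overlapped.

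In C3 c-JunP0Cre Adipoq was at 73.0, 155, 182, 230 and 327 CPM, above C3 at each of the 5 ages. In WT-C22 it was at 172, 167, 393, 451 and 510 CPM, and in C22 at 157, 210, 240, 409 and 272 CPM. By mean level the order was WT-C22 (339 ± 160 CPM, SD, n = 5), C22 (258 ± 94.8), C3 c-JunP0Cre (194 ± 94.0), WT-C3 (182 ± 60.7) and C3 (119.5 ± 80.3). Each neighbouring pair in that order differed by less than the larger of its SDs.

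Compared with WT-C3, none of the adipocyte genes passed the threshold in C3 in the fit without an age term. In edgeR (quasi-likelihood test, p adjusted by Benjamini-Hochberg) 0 of the 10 were called, against 23.9% of all genes tested, and DESeq2 called 0 as well. Both tools gave 2 genes at an unadjusted p under 0.05, which in edgeR were Fabp4 and Lep. The median log2 change of the 10 was -0.49 and that of all genes 0.00. Of the 9 genes other than Ucp1, 9 were lower in C3 at 3, 5 and 7 weeks, 6 at 9 weeks and 1 at 12 weeks.

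Lep (ENSMUSG00000059201, chr6:29060216-29073877 in GRCm39, plus strand) encodes leptin, the hormone that reports fat stores to the brain. In WT-C3 it was at 14.8, 25.8, 45.8, 22.7 and 27.6 CPM from 3 to 12 weeks, and in C3 at 3.88, 11.9, 14.5, 11.3 and 25.4 CPM. It was lower in C3 at 5 of 5 ages, although the ranges overlapped, with a log2 change of -1.03 ± 0.42 (SE) and an adjusted p of 0.0941 in edgeR. The per-age log2 differences were -1.91, -1.11, -1.66, -1.01 and -0.12, so that the 12-week pair was nearly level.

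Fabp4 (ENSMUSG00000062515, chr3:10268785-10273737 in GRCm39, minus strand) encodes the carrier that moves fatty acids in the adipocyte, and capillary endothelium expresses it too. It was at 455, 467, 729, 387 and 528 CPM in WT-C3 and at 126, 240, 237, 316 and 572 CPM in C3. The log2 change was -0.79 ± 0.33 (SE) with an adjusted p of 0.103 in edgeR, lower in C3 at 4 of 5 ages with overlapping ranges. Of 8 endothelial markers edgeR called 0 in C3, with 2 at an unadjusted p under 0.05 and 2 called by DESeq2, and their median log2 change was -0.24.

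The calls in C3 depended on how age was treated and on the 12-week library of C3. With all libraries and age as a block, edgeR called 3 of the 10 genes lower, against 13.5% of all genes: Adipoq with a log2 change of -0.82 ± 0.24 (SE, adjusted p = 0.0378), Fabp4 with -0.95 ± 0.28 (0.0382) and Lep with -1.19 ± 0.24 (0.00891). Without the 12-week library and with no block, edgeR called 4 of the 10 lower. That fit called 3683 of 13993 genes in either direction, and the fit of all libraries with no block called 3345. The share of all genes lower without the 12-week library is not given here. The 4 were Adipoq with a log2 change of -1.09 (adjusted p = 0.0280), Fabp4 with -1.17 (0.00797), Lep with -1.44 (0.0192) and Retn with -1.37 (0.0114). The remaining C3 changes in the fit of all libraries lay between -0.77 for Retn and 0.02 for Plin4, leaving out Ucp1. Of the 20 other white adipocyte genes 2 were lower in C3, against 11.4% of all genes, namely Cd36 (fatty acid uptake, log2 change -0.78 ± 0.25) and Lpl (lipoprotein lipase, -0.81 ± 0.27). Of 5 perineurial markers 4 were lower in C3, of 8 markers of epineurial fibroblasts and preadipocytes 1 was lower and of 8 macrophage markers 1 was higher (12.5% of all genes were), and their part in the adipocyte genes was not tested.

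In C22 against WT-C22 the adipocyte genes did not pass the threshold either in the fit without an age term. The count was 0 of 10 in edgeR, against 42.4% of all genes, 0 in DESeq2, and 0 at an unadjusted p under 0.05 in both. The median log2 change was -0.21, against 0.00 for all genes. Lep was lower in C22 at 5 of 5 ages, at 29.2, 34.4, 54.1, 155 and 66.3 CPM in C22 and at 40.9, 41.0, 125, 161 and 132 CPM in WT-C22. Its log2 change was -0.59 ± 0.50 (SE) with an adjusted p of 0.366 in edgeR, and the ranges overlapped. With age as a block it was the 1 gene of the 10 called lower (-0.64 ± 0.17, adjusted p = 0.0158), against 22.2% of all genes. Without Ucp1, 9 of 9 genes were lower in C22 at 7 and at 12 weeks, and 7 of 9 were higher at 9 weeks. Of the 20 other white adipocyte genes 0 were called in edgeR or DESeq2, with 0 at an unadjusted p under 0.05 in either. In the same comparison 5 of 5 perineurial, 4 of 8 endothelial and 3 of 8 epineurial fibroblast and preadipocyte markers were lower, and of 8 macrophage markers 2 were higher and 1 lower, where 20.5% of all genes were lower and 21.9% higher. Their part was not tested.

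The C22 library of 9 weeks held the highest C22 value of each of the 9 genes other than Ucp1. Fabp4 reached 1104 CPM there, against 579, 448, 469 and 560 CPM at 3, 5, 7 and 12 weeks. Lep, Retn, Pparg and Plin1 reached 155, 91.7, 77.1 and 654 CPM in that library.

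The changes in C3 and C22 were compared in 1 fit, and 0 of the 10 genes differed in edgeR, against 12.1% of all genes, with 0 at an unadjusted p under 0.05 and 0 in DESeq2. The difference for Adipoq, the C22 change minus the C3 change, was 0.18 ± 0.57 (SE) on the log2 scale. For Fabp4 it was 0.59 ± 0.48. The SEs show how wide these differences remained.

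**Figure D2:**
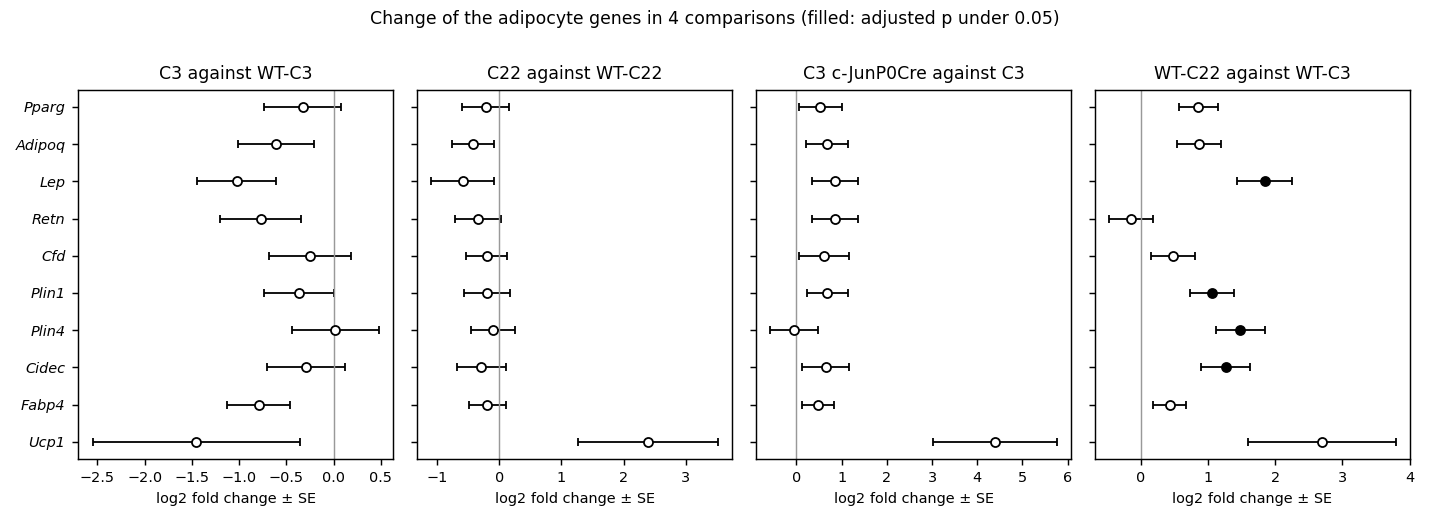
Log2 fold change ± SE of each adipocyte gene in 4 comparisons from edgeR without an age term, with filled points for an adjusted p under 0.05. Filled points occur only in WT-C22 against WT-C3, for Lep, Plin1, Plin4 and Cidec, while Ucp1 has the widest SE.

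WT-C22 nerves held more RNA of the droplet genes and of leptin than WT-C3 nerves. Of the 10 genes 4 were higher in edgeR, against 9.99% of all genes higher. They were Lep, Plin4, Cidec and Plin1. DESeq2 called 5 of the 10, against 3484 of 13993 genes in either direction. The median log2 difference of the 10 was 0.96, against 0.00 for all genes, and 10 of the 20 other white adipocyte genes were higher too. Among these were Aqp7 (glycerol channel, 1.02 ± 0.20), Car3 (carbonic anhydrase of fat and muscle, 1.37 ± 0.29) and Lipe (hormone-sensitive lipase, 1.27 ± 0.32). The 2 strains are different mice, and strain and any difference in dissection cannot be told apart.

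Plin1 (ENSMUSG00000030546, chr7:79369966-79382718 in GRCm39, minus strand) encodes perilipin 1, which guards the droplet against lipases. It was at 150, 175, 302, 129 and 209 CPM in WT-C3 and at 214, 230, 448, 471 and 700 CPM in WT-C22. The log2 difference was 1.06 ± 0.32 (SE) with an adjusted p of 0.035 in edgeR, higher in WT-C22 at 5 of 5 ages with overlapping ranges.

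Cidec (ENSMUSG00000030278, chr6:113400691-113412721 in GRCm39, minus strand) encodes a protein that fuses droplets into 1 large droplet. It was at 96.7, 121, 210, 117 and 169 CPM in WT-C3 and at 143, 171, 440, 439 and 563 CPM in WT-C22. The log2 difference was 1.26 ± 0.36 with an adjusted p of 0.0257 in edgeR, again at 5 of 5 ages and with overlapping ranges. The calls of Plin1 and Cidec were lost on leaving out any 1 of several libraries. The adjusted p of Plin1 rose to between 0.0632 and 0.0844 without WT-C3 at 3, 5, 9 or 12 weeks or WT-C22 at 7, 9 or 12 weeks. That of Cidec rose to between 0.0580 and 0.0645 without the same libraries, except WT-C3 at 12 weeks.

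Plin4 (ENSMUSG00000002831, chr17:56406617-56416931 in GRCm39, minus strand) encodes perilipin 4, found on small droplets and also made in skeletal muscle. It was at 101, 200, 275, 114 and 294 CPM in WT-C3 and at 280, 347, 773, 718 and 700 CPM in WT-C22. The 3-week WT-C22 library alone fell within the WT-C3 range, and the log2 difference was 1.48 ± 0.36 with an adjusted p of 0.0111 in edgeR. Plin4 shares 3124 exon bases with the antisense gene Hdgfl2, and the strand setting of the counting is not given in the sources used here.

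Lep had the largest of the 4 called differences, with a log2 difference of 1.85 ± 0.41 (SE) and an adjusted p of 0.00700 in edgeR. Only WT-C22 at 3 and 5 weeks, at 40.9 and 41.0 CPM, fell within the range of WT-C3. The per-age log2 difference was 1.46, 0.66, 1.44, 2.82 and 2.25 from 3 to 12 weeks. In the fit of all libraries Adipoq (0.87 ± 0.33, adjusted p = 0.0809) and Pparg (0.85 ± 0.29, 0.0539) did not pass the threshold in edgeR. With age as a block 7 of the 10 were called higher, against 12.7% of all genes, with Adipoq, Pparg and Ucp1 besides the 4.

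Retn (ENSMUSG00000012705, chr8:3705324-3710689 in GRCm39, plus strand) encodes resistin, a hormone that mouse adipocytes secrete. It was at 52.5, 55.9, 106, 57.4 and 73.9 CPM in WT-C3 and at 38.1, 36.1, 50.4, 67.5 and 127 CPM in WT-C22. The groups overlapped, and its log2 difference was -0.14 ± 0.33 with an adjusted p of 0.805 in edgeR. Retn shares 91 exon bases with an antisense pseudogene.

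Mast cell markers were higher in WT-C22 beside the adipocyte genes. Of 6 markers 5 were tested and 5 were higher, with a median log2 difference of 1.79, and their sum was 32.0 to 80.9 CPM in WT-C3 and 66.6 to 267 CPM in WT-C22. Of the 8 markers of epineurial fibroblasts and preadipocytes 0 were called by edgeR or DESeq2, with 0 at an unadjusted p under 0.05 in edgeR and 2 in DESeq2, and a median log2 difference of 0.11. The skeletal muscle markers had a median log2 difference of 0.94. Their part in the adipocyte genes was not tested.

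C3 c-JunP0Cre nerves were compared with C3 nerves, the 1 comparison of the 4 in which libraries of the same age, once group means were removed, correlated over 0.1 at every age. In the fit without an age term 0 of the 10 genes were called in edgeR, against 0.55% of all genes, with 1 at an unadjusted p under 0.05. DESeq2 called 1, against 250 of 13993 genes. In both tools it was Ucp1. With age as a block edgeR called 7 of the 10 higher, against 1.17% of all genes. They were Adipoq, Plin1, Cidec, Lep, Retn, Cfd and Ucp1, which was above 4 counts in only 2 of these 10 libraries, those of C3 c-JunP0Cre at 5 and 7 weeks.

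With the block the log2 change of Plin1 was 0.68 ± 0.077 (SE, adjusted p = 0.00277 in edgeR) and that of Cfd 0.66 ± 0.075 (0.00289). Retn rose by 0.96 ± 0.13 (0.00678), Lep by 0.82 ± 0.13 (0.0144), Adipoq by 0.76 ± 0.12 (0.0144) and Cidec by 0.66 ± 0.14 (0.0485). Adipoq, Plin1, Cidec, Fabp4, Lep, Retn, Cfd and Pparg were higher in C3 c-JunP0Cre at 5 of 5 ages. Pparg (adjusted p = 0.0509) and Fabp4 (0.0570) did not pass the threshold in edgeR with the block. Plin4 stood apart with a log2 change of -0.02 ± 0.11.

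Plin1 was at 84.2, 205, 204, 279 and 449 CPM in C3 c-JunP0Cre and at 55.3, 109, 137, 168 and 284 CPM in C3. Retn was at 30.4, 51.6, 74.3, 74.5 and 139 CPM and at 14.2, 25.7, 27.0, 49.4 and 89.8 CPM. Both genes had overlapping ranges, since the rise with age within each group was larger than the difference between groups at 1 age. Plin4 was at 50.6, 170, 155, 264 and 346 CPM in C3 c-JunP0Cre and at 45.9, 141, 222, 239 and 359 CPM in C3. Skeletal muscle markers had a median log2 change of -2.43 in this comparison, with 0 of 7 called by edgeR or DESeq2 and 0 and 2 at an unadjusted p under 0.05, and their part in Plin4 was not tested.

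The adipocyte genes rose with age in several groups. A natural spline of age with 3 degrees of freedom was tested within each group, over 15298 genes, and 9 of the 10 genes passed its filter. In C3, edgeR called 8 of 9, against 2.27% of all genes, with Plin1 at an adjusted p of 0.0607. In C3 c-JunP0Cre it called 7 of 9, against 3.38%, with Plin1 (0.0535) and Fabp4 (0.160) not called. In WT-C22 it called Lep, Cidec and Cfd (3 of 9, against 2.86%) and in C22 Lep alone (1 of 9, against 0.752%). In WT-C3 it called 0 of 9, against 0.693%, with 2 at an unadjusted p under 0.05, and DESeq2 called 0.

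Cfd (ENSMUSG00000061780, chr10:79726668-79728496 in GRCm39, plus strand) had the lowest adjusted p of the 9 genes in C3, at 0.00896 in edgeR. In C3 it was at 199, 692, 746, 933 and 1794 CPM from 3 to 12 weeks. In WT-C3 it was at 697, 843, 1531, 986 and 1109 CPM, where the peak lay at 7 weeks. The linear slope was 0.30 ± 0.052 (SE) log2 CPM per week in C3 and 0.065 ± 0.053 in WT-C3.

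Pparg (ENSMUSG00000000440, chr6:115337675-115468268 in GRCm39, plus strand) was at 7.79, 12.2, 16.1, 26.0 and 43.3 CPM in C3, rising at each age. In WT-C3 it was at 22.0, 23.7, 37.1, 17.9 and 27.8 CPM. Its slope was 0.28 ± 0.046 in C3 and 0.016 ± 0.048 log2 CPM per week in WT-C3. The slopes of the 9 genes in C3 lay between 0.22 for Fabp4 and 0.30 for Cfd, and in WT-C3 between 0.0084 for Fabp4 and 0.11 for Plin4.

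The courses of C3 and WT-C3 were not shown to differ. The test of the difference called 0 of 9 in edgeR, against 0.0261% of all genes, with 8 of 9 at an unadjusted p under 0.05 and adjusted p-values from 0.540 to 0.572. DESeq2 called 1. For C22 against WT-C22 it called 0 of 9, against 0.0523% of all genes, with 0 at an unadjusted p under 0.05 and 0 in DESeq2.

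The number of age calls depended on single libraries. Without the 3-week library edgeR called 0 of the genes in C3, and without the 12-week library it called 1. In C3 c-JunP0Cre it called 0 without the 3-week or the 12-week library, 3 without the 5-week or the 7-week library and 4 without the 9-week library. In WT-C22 it called 0 without the 3-week or the 12-week library and 1 without the 5-week library. In C22 it called 0 without the 3-, 5- or 9-week library. A group less 1 library has as many libraries as the model has terms for it, so the curve passes through each of them. The share of all genes called in these fits is not given here, so a loss particular to the adipocyte genes is not shown.

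The adipocyte genes moved together from library to library. Over the 25 libraries Pearson's r of log2 CPM with Adipoq was 0.966 for Cidec, 0.960 for Plin1, 0.942 for Lep, 0.933 for Pparg, 0.931 for Fabp4, 0.923 for Cfd and 0.879 for Plin4. Spearman's rho was 0.969, 0.961, 0.902, 0.925, 0.880, 0.918 and 0.860 in the same order. For these 7 genes the permutation p, adjusted over 9 genes, was 1e-05 for r and for rho, the smallest that 100000 permutations can give. Retn followed less closely, with r = 0.775 (adjusted permutation p = 1e-05) and rho = 0.716 (adjusted permutation p = 0.00018). Without the 2 libraries farthest from the median of Adipoq, C3 at 3 weeks and WT-C22 at 12 weeks, r was 0.940 for Plin1, 0.943 for Cidec and 0.636 for Retn. With each group centred on its mean, which leaves age in, r of Retn was 0.903. The permutations shuffled libraries of all groups and ages, and the part of age was not tested. All library names share the same prefix, and no batch is named in the sample labels used here.

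Ucp1 was the exception, with r = 0.167 (adjusted permutation p = 0.427) and rho = 0.137 (0.511).

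Among genes outside the list, the 10 most like Adipoq by r over the 25 libraries were Dram1, Pde3b, Car3, Adhfe1, Abcd2, Ces1d, Aifm2, Pon3, Tspan12 and Serpina3c, with r from 0.956 to 0.970. Car3 is 1 of the 20 other white adipocyte genes, and Pde3b encodes the phosphodiesterase through which insulin restrains lipolysis.

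Dividing each gene by Adipoq in the same library takes out a change that all fat RNA shares. This comparison was added after the values were seen and covered 8 genes in 4 comparisons, 32 tests in all. The log2 ratio of Lep to Adipoq was -2.76 ± 0.23 (SD, n = 5) in WT-C3 and -1.84 ± 0.26 in WT-C22, a difference of 0.92 with no overlap of the groups. The ratio of Retn went the other way, at -1.39 ± 0.10 in WT-C3 and -2.42 ± 0.41 in WT-C22, a difference of -1.03 with no overlap. That of Cfd was 2.52 ± 0.068 and 2.12 ± 0.21, again with no overlap. As a ratio between the strains this is 1.90 for Lep and 0.489 for Retn.

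These 3 ratios each had an exact two-sided permutation p of 0.00794, the smallest that 5 against 5 libraries allow, and 0.0635 after adjustment over the 32 tests, so none passed the correction. The groups with the transgenes lay near their own strain. The Lep ratio was -3.12 ± 0.16 in C3, -3.06 ± 0.28 in C3 c-JunP0Cre and -2.12 ± 0.46 in C22. The Retn ratio was -1.56 ± 0.54 in C3, -1.40 ± 0.19 in C3 c-JunP0Cre and -2.36 ± 0.13 in C22. No ratio in C3 or C22 against its control passed the correction, and their adjusted exact p-values were 0.109 or more.

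The Plin4 ratio was the remaining one with no overlap. It was 0.73 ± 0.47 in C3 and -0.071 ± 0.30 in C3 c-JunP0Cre, a difference of -0.80 (exact p = 0.00794, adjusted 0.0635). The C3 library of 9 weeks, the most shallow one, had the highest ratio to Adipoq in C3 for all 8 genes.

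**Figure D3:**
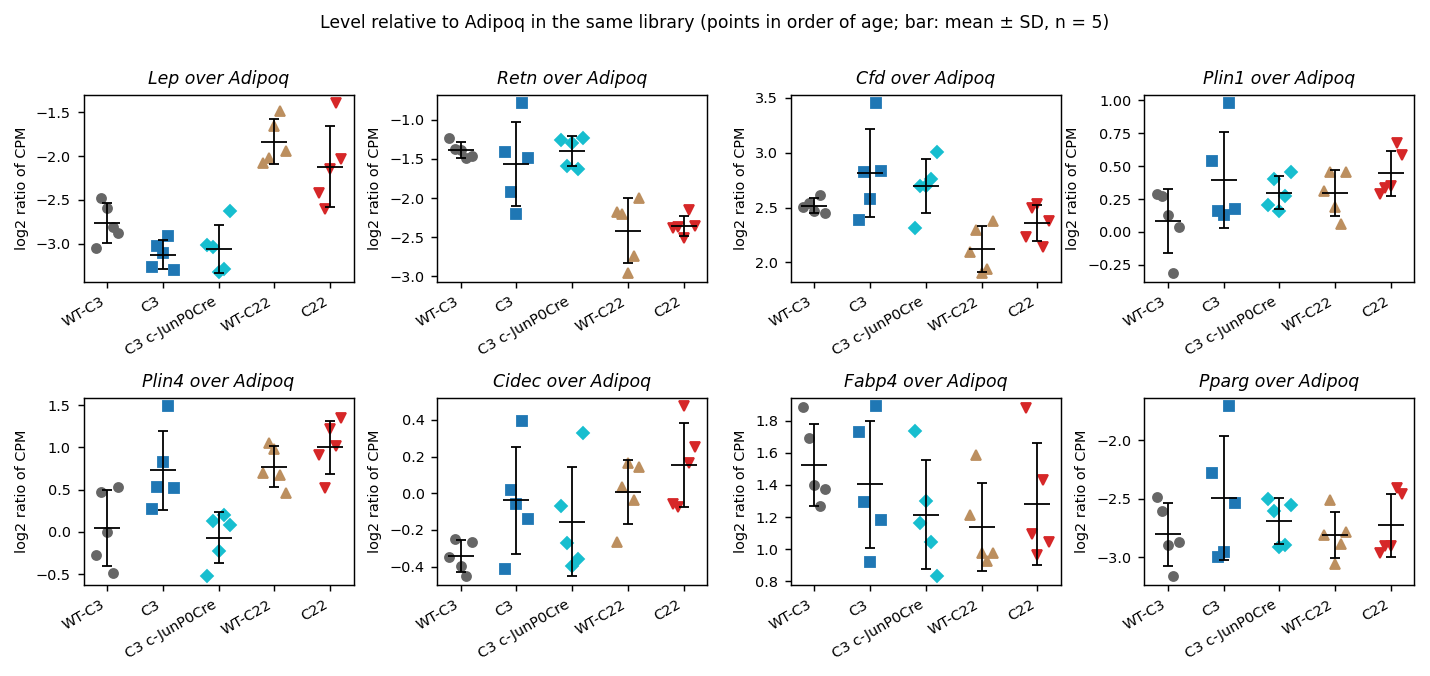
Log2 ratio of the CPM of 8 adipocyte genes to that of Adipoq in the same library, by group, with 1 point per library in order of age and the mean ± SD. The Lep points of WT-C22 lie above and the Retn points below all points of WT-C3.

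Ucp1 (ENSMUSG00000031710, chr8:84016647-84025085 in GRCm39, plus strand) encodes the uncoupling protein of brown and beige fat, which turns fuel into heat. In C22 it was at 16.6, 5.32, 0.295, 8.35 and 0.0775 CPM from 3 to 12 weeks, which were 478, 108, 8, 228 and 2 counts. In WT-C22 it was at 0.849, 3.19, 0.124, 2.09 and 0.255 CPM, or 22, 31, 3, 53 and 10 counts. The C22 libraries thus lay both above and below those of WT-C22, and the log2 change of 2.40 ± 1.12 had an adjusted p of 0.108 in edgeR. Without the C22 library of 12 weeks, the change was 2.71 with an adjusted p of 0.0485.

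In C3 c-JunP0Cre Ucp1 gave 2, 118, 70, 3 and 0 counts. In C3 it gave 4, 2, 2, 0 and 0 counts and in WT-C3 9, 0, 0, 0 and 2. A count of up to 3 in a library was taken as the limit of detection, and 4 of 5 C3 libraries and 4 of 5 WT-C3 libraries lay at or under it. A fitted fold of Ucp1 between these groups depends on the prior count and is not read as a change. The adjusted p of Ucp1 in C3 c-JunP0Cre against C3 was 0.312 in edgeR without an age term and 0.0287 with age as a block.

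Cidea, another gene of brown fat that is also found in lactating gland and in some white depots, followed Ucp1 in part. In C22 it was at 14.1, 8.32, 3.35, 22.7 and 1.78 CPM and in WT-C22 at 2.89, 7.50, 1.74, 4.46 and 4.25 CPM. It was higher in WT-C22 than in WT-C3 (log2 difference 2.50 ± 0.51, adjusted p = 0.00404 in edgeR), where it was at 1.08, 1.23, 0.779, 0.394 and 0.12 CPM. Cox8b, a further gene of brown fat, did not share that difference between the strains. It was lower in WT-C22 than in WT-C3 at 3, 7, 9 and 12 weeks and higher at 5 weeks, on 3 to 29 counts. At 3 weeks it was at 0.463 CPM in WT-C22 and 2.23 CPM in WT-C3, and at 5 weeks at 2.57 and 1.93 CPM. In C22 Cox8b was above WT-C22 at 3, 7 and 9 weeks and below it at 5 and 12 weeks. Elovl3, an elongase of brown fat, was at 0 to 14 counts in every library. Of the 8 genes of the brown and beige list, which does not include Ucp1, 5 were tested. In C22 2 of them were higher, against 21.9% of all genes, Ppargc1a (log2 change 1.25 ± 0.13) and Prdm16 (0.42 ± 0.11), a coactivator and a transcription factor that other cell types express as well. In C3 the same 2 were higher (0.45 ± 0.11 and 0.45 ± 0.10) and Cox7a1, a respiratory chain subunit also made in muscle, was lower (-1.59 ± 0.25).

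Fatty acid and cholesterol synthesis genes were then set beside the adipocyte level. Of 15 genes of fatty acid and triglyceride synthesis 7 were lower in C3, against 11.4% of all genes lower, and 3 were lower in C22, against 20.5%. In C3 they were Acss2 and Acly (acetyl-CoA supply), Elovl6 (chain elongation), Scd1 and Scd2 (desaturation), Me1 (NADPH supply) and Dgat2 (the last step to triglyceride). In C22 they were Elovl6, Scd2 and Acss2. Of 20 cholesterol synthesis enzymes 17 were lower in C3 and 20 in C22.

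Only part of these genes followed Adipoq over the libraries. Of the 15 fatty acid and triglyceride genes 9 had a positive r past the threshold (permutation p adjusted within each list), led by Dgat2 (r = 0.866, rho = 0.829), Mlxipl (0.857, 0.859), Dgat1 (0.842, 0.840) and Scd1 (0.809, 0.799). Mlxipl encodes ChREBP, the carbohydrate-sensing factor of lipid synthesis. Elovl6 (-0.187) and Scd2 (-0.196) did not follow it over all libraries. Of the 20 cholesterol enzymes 0 passed, with r from -0.335 to 0.0899. With each group centred on its mean, 17 of the 20 had a negative r past the threshold, with a median of -0.74. Of the 15 fatty acid genes 7 were then positive and 2 negative, namely Elovl6 (-0.680) and Scd2 (-0.682). Centring leaves age in, and the permutations shuffled libraries of all ages. From 3 to 12 weeks the summed cholesterol enzymes fell from 10046 to 4512 CPM in WT-C3. They fell from 9319 to 3981 CPM in WT-C22 and from 1316 to 1142 CPM in C22. Adipocyte genes rose with age in several groups, and the part of age in these correlations was not tested. Without the 2 libraries farthest from the median of Adipoq the counts were again 9 of 15 and 0 of 20. This comparison too was added after the values were seen.

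**Figure D4:**
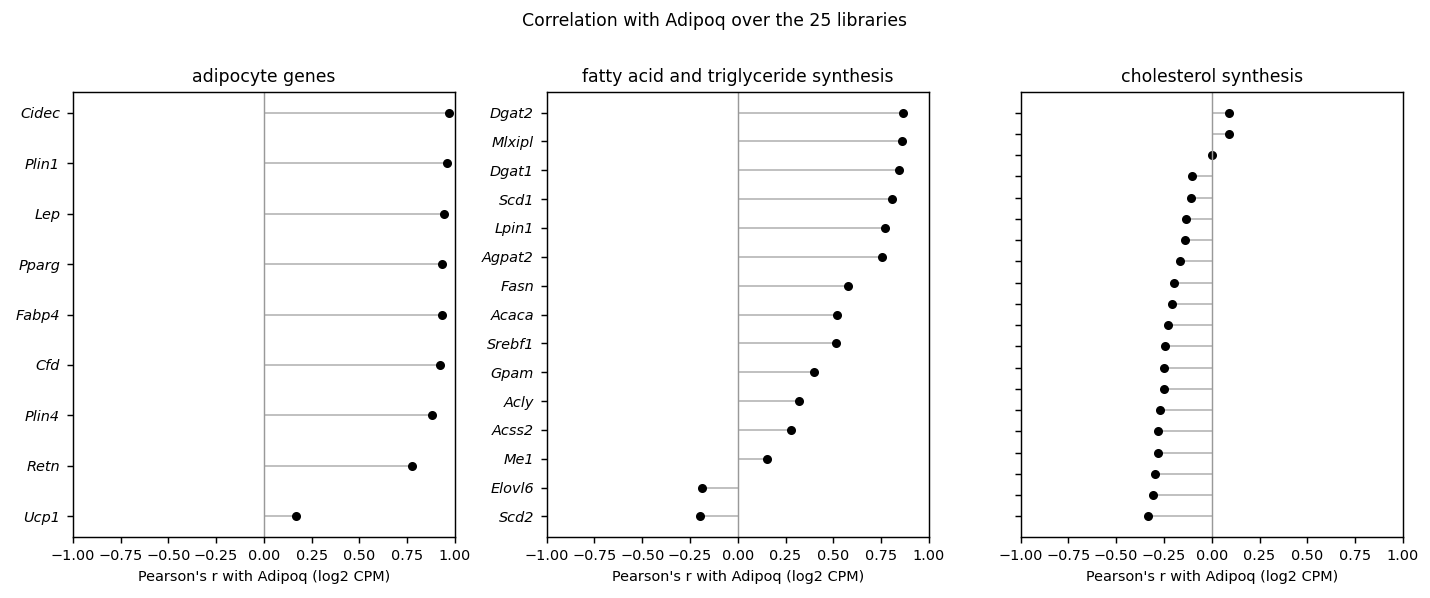
Pearson's r with Adipoq over the 25 libraries (log2 CPM) for the other 9 adipocyte genes, 15 fatty acid and triglyceride synthesis genes and 20 cholesterol synthesis genes, with 1 point per gene and no gene names in the cholesterol panel. The first 8 adipocyte genes lie at 0.775 or above, the fatty acid genes spread from -0.196 to 0.866 and the cholesterol genes lie from -0.335 to 0.0899.

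The adipocyte level of a library, the mean log2 CPM of Adipoq, Plin1 and Cidec, was 7.36 ± 0.45 (SD, n = 5) in WT-C3, 6.76 ± 0.97 in C3, 8.35 ± 0.80 in WT-C22 and 8.14 ± 0.60 in C22. With it as a covariate edgeR called 20% of all genes in C3 and 47.1% in C22. The median log2 change of the 15 fatty acid and triglyceride genes moved from -0.58 to -0.52 in C3 and from -0.44 to -0.28 in C22. That of the 20 cholesterol enzymes moved from -1.05 to -1.21 in C3 and from -2.15 to -2.17 in C22. These fits had no age term, and the adipocyte level changed with age. From 3 to 12 weeks it went from 5.30 to 7.99 in C3 and from 7.45 to 9.19 in WT-C22. Age and fat RNA thus cannot be told apart in these shifts, and the part of age was not tested.

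Dgat2 and Scd1, which followed Adipoq over the libraries, moved towards 0 in both models. Elovl6, with r = -0.187 over all libraries and -0.680 with groups centred, moved away from 0. Lpin1 (r = 0.770) and Srebf1 (0.511) followed Adipoq too. With the covariate edgeR called both higher in C3, at 0.43 ± 0.13 (adjusted p = 0.0359) and 0.45 ± 0.14 (0.0361). Srebf1 was also called higher in C22 (0.65 ± 0.13, 0.00189). Without the covariate 0 of the 15 were called higher in either model. Dgat2 went from -0.76 ± 0.26 (adjusted p = 0.0491 in edgeR) to -0.52 ± 0.17 (0.0507) in C3, and Scd1 from -1.0 ± 0.21 (0.00592) to -0.86 ± 0.20 (0.0114). In C22 Dgat2 went from -0.37 ± 0.44 to -0.089 ± 0.21 and Scd1 from -0.51 ± 0.53 to -0.31 ± 0.26, none of which passed the threshold.

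Elovl6 and Scd2 kept their calls in both models. In C22 Elovl6 was at -1.85 ± 0.18 without and -1.88 ± 0.13 with the covariate, and Scd2 at -0.93 ± 0.16 and -0.96 ± 0.11. In C3 Elovl6 was at -0.99 ± 0.20 and -1.17 ± 0.17.

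**Figure D5:**
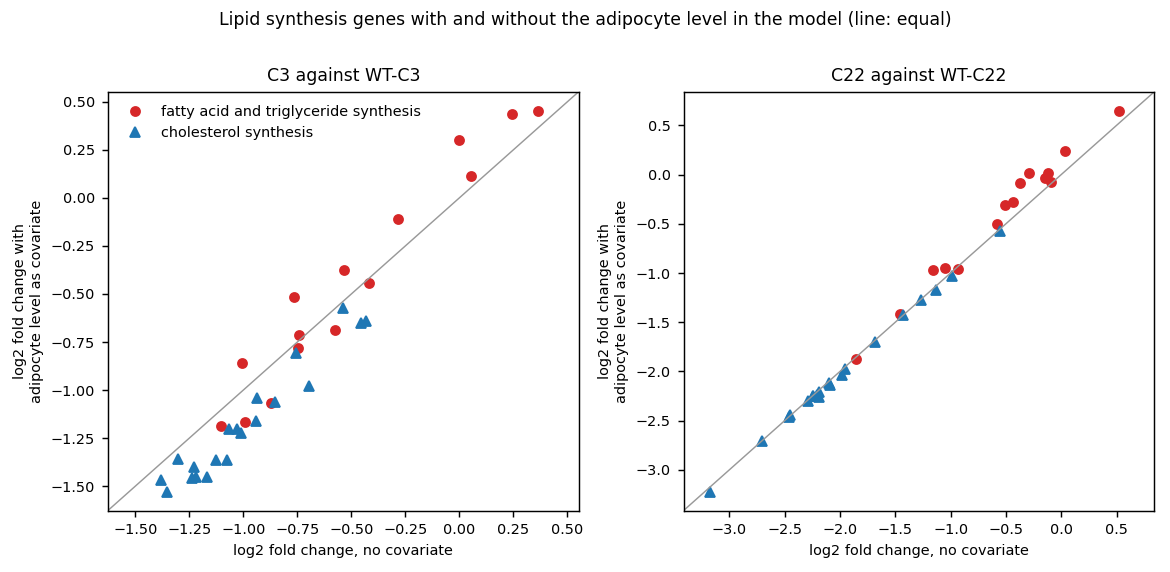
Log2 fold change of 35 lipid synthesis genes with the adipocyte level as a covariate (vertical) against that without it (horizontal), in C3 and in C22, with the line of equal values. Neither fit has an age term. The cholesterol genes of C22 lie close to the line and those of C3 below it, while most fatty acid and triglyceride genes of C22 lie above it.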

How the data were processed

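Per the study's methods, the authors trimmed the reads with Cutadapt 2.10, checked them with FastQC 0.11.9, aligned them with STAR 2.7.5a to GRCm39 with the human transgene locus added, removed duplicates with UMI-tools 1.1.1 and counted with HTSeq 0.12.4 on Ensembl 110. They deposited raw counts per gene, with no normalization. Between 13.5% and 17.4% of each column lay on no single gene and was left out. Each library is a pool of animals, so p-values of fits without an age term measure the spread between pools and ages. Of 56941 mouse genes 56323 were matched to a symbol (GENCODE M39).

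Counts were scaled by TMM and tested in R 4.3.3 with edgeR 4.0.16 (quasi-likelihood, Benjamini-Hochberg, threshold 0.05, over 13993 genes for groups and 15298, by filterByExpr, for age). Log2 CPM used a prior count of 2. DESeq2 1.42.0, other scalings, filters and fits, age as a block and leaving out each library were the alternatives. Libraries of the same age were taken as paired only where their correlation over genes, once group means were removed, exceeded 0.1 at every age. That held for C3 c-JunP0Cre and C3 (0.439, 0.123, 0.347, 0.265 and 0.616 by age). For WT-C22 and WT-C3 it was positive at every age but 0.0457 at 12 weeks, and otherwise 0.149 to 0.654. Permutation tests used scipy 1.17.1. In simulated data (dispersion 0.035) 90% of genes changed by a log2 of 1 and 26% of those changed by 0.5 were recovered in C3 against WT-C3. Of the unchanged genes 7 were called, over 13993 genes. Every gene was given that 1 dispersion, which was not fitted to the adipocyte genes. Lep, with a log2 change of -1.03 ± 0.42 (SE) in C3, was not called, so these shares are not shown to hold for the adipocyte genes.

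All 10 adipocyte genes are named. Other genes named are the 10 most like Adipoq, the transgene and Jun, and up to 5 called members of a list. The adipocyte genes, the lists and the tests were chosen with earlier results of these data known. The SDs and SEs come from the spread between libraries, and the limit of detection of Ucp1 covers counting error only. The deconvolution and pathway analyses were not used here.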

Additional observations from a re-analysis of the deposited data

Results flagged for a closer look

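In each group of 5 libraries, for each of the 10 adipocyte genes, the highest and the lowest library were set against the rest, and a library was listed when its gap to the nearest other exceeded Dixon's 95% critical value as a share of the group's range. Chance lists about 1 in 20 groups. Of 50 such groups 2 held a library that stood apart. Fabp4 was at 1104 CPM in C22 at 9 weeks, where the other C22 libraries reached at most 579 CPM. Ucp1 was at 0.691 CPM, or 9 counts, in WT-C3 at 3 weeks, where the other libraries of the group held 0 to 2 counts.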

How the results depend on the processing

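With age as a replicate block edgeR called 3 of the 10 adipocyte genes lower in C3 against WT-C3 (Adipoq, Fabp4, Lep), 1 lower in C22 against WT-C22 (Lep) and 7 higher in WT-C22 against WT-C3, where the fit without it called 0, 0 and 4. In these comparisons the correlation of same-age libraries did not exceed 0.1 at every age. In C3 c-JunP0Cre against C3 the count went from 0 to 7 with the block and to 1 with DESeq2. Over all genes that comparison had 77 calls, against 273 with the block, 250 with DESeq2, 139 with all 25 libraries, 134 with no filter and 43 to 98 without 1 library. With all 25 libraries in 1 fit, 2 genes were higher in WT-C22 than in WT-C3. Leaving out 1 library gave 2 to 6 there, 0 to 4 lower in C3 and 0 to 1 higher in C22. For age, C22 had 0 calls with 2 degrees of freedom, a linear slope or the log2 CPM filter and 2 with DESeq2, WT-C22 had 6 with a linear slope and 5 with DESeq2, C3 c-JunP0Cre had 4 with the log2 CPM filter, and the C3 course differed from WT-C3 for 1 gene with DESeq2. Over all genes a linear slope gave 401 age calls in WT-C3, 912 in C3, 913 in C3 c-JunP0Cre and 1188 in WT-C22, where the spline gave 106, 347, 517 and 437, and 71 against 8 for the difference in course between C22 and WT-C22. For the adipocyte genes, leaving out 1 library gave 0 to 9 age calls in C3, 0 to 4 in C3 c-JunP0Cre, 0 to 3 in WT-C22 and 0 to 1 in C22. The share of all genes in these fits is not given here. Fatty acid and triglyceride genes higher went from 0 to 1 in C3 with library size only and to 2 with the adipocyte covariate, and in C22 to 1 with library size only, DESeq2, the block or the covariate. Those lower in C22 went from 3 to 5 with the covariate. Leaving out 1 library gave 0 to 1 higher in both and 3 to 6 lower in C22.

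Log2 changes near 0 turned sign. Plin4 was -0.15 in C3 with the block and 0.060 in C22 with library size only. In the difference between the C22 and C3 changes Plin4 was 0.051 and Cidec 0.29 with the block, and Cidec was 0.0045 with median-ratio factors, 0.085 with library size only, 0.0053 with DESeq2, 0.016 with no filter, 0.017 with filterByExpr and 0.012 with all libraries in 1 fit. Over the fits that left out 1 library, Plin4 ran from -0.30 to 0.29 in C3, Cfd from -0.69 to 0.012 and Ucp1 from -1.97 to 0.52. In C22, Plin1 ran from -0.52 to 0.071, Plin4 from -0.32 to 0.046, Cfd from -0.37 to 0.11 and Retn from -0.66 to 0.065. In the difference, Adipoq ran from -0.055 to 0.67, Plin1 from -0.16 to 0.55, Plin4 from -0.40 to 0.21, Lep from -0.14 to 0.86, Cidec from -0.26 to 0.42, Cfd from -0.22 to 0.50 and Pparg from -0.25 to 0.69. Plin4 ran from -0.36 to 0.28 in C3 c-JunP0Cre against C3, and Retn from -0.54 to 0.070 in WT-C22 against WT-C3. The r of Ucp1 with Adipoq was -0.285 with groups centred. The causes were not tested. Lep rests on 26 counts in C3 at 9 weeks, and Ucp1 on at most 3 counts in most libraries of WT-C3 and C3.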
